A study of Mus musculus with 4 samples.

Results

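The genes described here are the 10 MHC class II and invariant chain genes Cd74, H2-Aa, H2-Ab1, H2-Eb1, H2-DMa, H2-DMb1, H2-DMb2, H2-Oa, H2-Ob and Ciita, taken by symbol from both deposited tables. All 10 were listed in both tables, among 15603 gene symbols listed in either. RNA-seq was done on CX3CR1-positive periosteum-resident macrophages, sorted as CD45-positive, Cx3cr1-positive cells from the tissue sheath of bone. The animals were male wild-type C57BL/6 mice at postnatal day 28, with no treatment or engineered allele named in the labels. The groups were ACE-positive, ACE-negative, CD74-positive and CD74-negative cells, each with 1 library. ACE is the angiotensin-converting enzyme, and CD74 is the invariant chain of MHC class II. Cd74 was therefore a sorting marker in the CD74 table, and its ratio there is a check of the sort and not a finding. The labels do not say how many mice went into a library or whether the ACE and CD74 sorts came from the same cell suspension.

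MHC class II molecules show peptides from endocytosed proteins to CD4 T cells. An alpha and a beta chain (H2-Aa and H2-Ab1 for I-A in the mouse) assemble in the endoplasmic reticulum with the invariant chain, which blocks the peptide groove and carries the complex to endosomes. Proteases there trim the invariant chain to a short remnant, H2-DM exchanges that remnant for peptide, and H2-DO restrains H2-DM. CIITA, the class II transactivator, is recruited by factors that sit on the conserved X and Y boxes of class II promoters. Macrophages raise this programme in response to interferon gamma, whereas B cells and dendritic cells hold it on without that signal. C57BL/6 mice carry a deletion that silences the I-E alpha chain gene, so the beta chain encoded by H2-Eb1 has no I-E alpha partner in this strain.

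Libraries held between 7020232 and 13282126 reads on listed genes, and between 13409 and 14618 genes had at least 1 read. Levels are CPM, counts per unit of library size after trimmed-mean scaling within a table. Brackets hold exact 95% intervals for counting error alone. A call of higher or lower required a mean level of 5 CPM or more, a log2 ratio of CPM + 1 (positive over negative) of 1 or more in either direction, and a fold whose interval left out 1. With 1 library per group there is no test between conditions, and a call compares these libraries. Ace itself was at 1215 CPM in the ACE-positive library, against 11.6 CPM in the ACE-negative library. Cd74 was at 2157 CPM in the CD74-positive library and at 455 CPM in the CD74-negative library, so its transcript was abundant on both sides of that sort. Cx3cr1, the fractalkine receptor used in every gate, was at 475 CPM in ACE-positive and 180 CPM in ACE-negative cells, and at 283 CPM in CD74-positive and 158 CPM in CD74-negative cells. Adgre1, which encodes the macrophage antigen F4/80, was named outside the rule for named genes. It was at 373 CPM in ACE-positive, 163 CPM in ACE-negative, 257 CPM in CD74-positive and 145 CPM in CD74-negative cells. Its presence does not by itself settle the cell type of a library. Macrophage markers summed to 4607, 1518, 3281 and 1365 CPM in that order of libraries, and classical monocyte markers to 6482, 13508, 11260 and 12650 CPM.

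The promoters of these genes are shown because the X and Y boxes are what the transactivator machinery reads, and because members with alike boxes differed in their ratios below. RefSeq promoters (GRCm38.p6, 250 bases before to 50 after the start) matched 7 of the 10 members with 8 promoters, as H2-DMa has a pair of them. No promoter was matched for Cd74, H2-Ab1 or Ciita, so H2-Aa and H2-Eb1 alone stand here for the members called higher below. Each line gives the stretch around the boxes, 5′ to 3′ along the gene's strand, from chr17:34287847-34287927 (H2-Aa, minus strand), chr17:34305753-34305832 (H2-Eb1), chr17:34153074-34153154 (H2-DMb1), chr17:34145103-34145183 (H2-DMb2), chr17:34092280-34092360 (H2-Oa) and chr17:34238795-34238872 (H2-Ob), the last 5 on the plus strand. The first run of capitals marks a match to CNNGNAAC, the core of the X1 box, and the last marks the Y box ATTGG. In the H2-DMb2 line the capitals mark the Y box alone.
H2-Aa: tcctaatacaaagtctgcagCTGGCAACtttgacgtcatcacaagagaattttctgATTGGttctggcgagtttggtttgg
H2-Eb1: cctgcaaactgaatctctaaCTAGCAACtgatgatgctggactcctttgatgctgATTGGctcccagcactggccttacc
H2-DMb1: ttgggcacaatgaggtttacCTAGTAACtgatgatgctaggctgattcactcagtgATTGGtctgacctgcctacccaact
H2-DMb2: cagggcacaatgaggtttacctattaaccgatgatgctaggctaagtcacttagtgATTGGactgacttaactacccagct
H2-Oa: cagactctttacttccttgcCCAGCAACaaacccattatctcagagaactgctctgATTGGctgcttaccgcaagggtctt
H2-Ob: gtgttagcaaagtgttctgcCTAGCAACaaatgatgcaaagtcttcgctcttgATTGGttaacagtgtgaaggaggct

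The Y box ATTGG was found on either strand in 7 of the 8 promoters of members, all but 1 of the pair of H2-DMa, and in 37.4% of all 32851 promoters of the table. The X1 box written as CCNNGNAAC was found in 4 of the 8 (15.1% of all promoters) and the X2 core TGACG in 1, that of H2-Aa (20.8% of all promoters). An X1 box followed by a Y box on the same strand, with starts 25 to 40 bases apart, was found in 3 of the 8 (H2-DMb1, H2-Oa and H2-Ob) and in 0.286% of all promoters. With the shorter core CNNGNAAC, a spelling chosen after the sequences were seen, the pair was found in 5 of the 8 and in 0.633% of all promoters. CNNGNAAC overlaps CCNNGNAAC by construction. The starts of the paired boxes lay 36 bases apart in H2-Aa, H2-DMb1 and H2-Oa, 35 in H2-Eb1 and 33 in H2-Ob. The windows of H2-DMb1 and H2-DMb2 were identical at 69 of 81 aligned positions. A match is a stretch of letters and not a measured binding site.

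The classical chain genes and the transactivator were called higher in both positive libraries, while the H2-DM and H2-DO genes were not. The invariant chain gene Cd74 was called higher too, but its call in the CD74 table is a check of the sort. H2-DMb1 was above counting error in the ACE table, short of a call, and was called higher there when ratios were centred by gene length or a log2 threshold of 0.58 was used. In the sort on ACE, 5 of the 9 members that passed the level filter were called higher and 0 lower, where 9.46% of the 9656 genes tested were called higher and 8.62% lower. In the CD74 table again 5 of 9 were called higher and 0 lower, where 9.08% of 9719 genes were called higher and 7.73% lower. Without Cd74, which set that sort, 4 of 8 were higher in the CD74 table. The members called higher were Cd74, H2-Aa, H2-Ab1, H2-Eb1 and Ciita in both tables. H2-Oa did not reach a mean of 5 CPM in either table, and the 9 others stood at 5 CPM or more in every library. The median log2 ratio over all 10 members was 1.53 in the ACE table and 0.97 in the CD74 table (0.023 without Cd74), against −0.08 and −0.03 over all genes tested. The medians over 10 lie in the gap between a group of high ratios and a group of low ones, and describe neither.

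**Figure D1:**
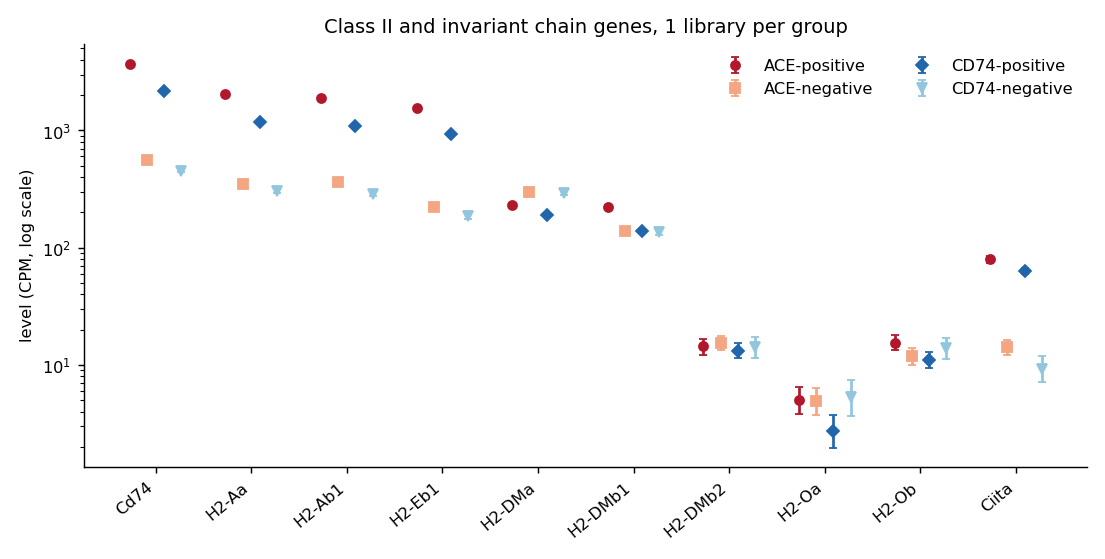
Level of each member in CPM (log scale) in the ACE-positive, ACE-negative, CD74-positive and CD74-negative library, with exact 95% Poisson intervals where they exceed the symbol. Cd74, H2-Aa, H2-Ab1, H2-Eb1 and Ciita stand higher in both positive libraries, while H2-DMa stands lower in both, at 232 CPM in ACE-positive against 297 CPM in ACE-negative cells.

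Among the chain genes, H2-Aa (ENSMUSG00000036594, chromosome 17, 34282744 to 34287823, minus strand) encodes the I-A alpha chain. It had 23507 reads (2050 CPM) in the ACE-positive library, against 4212 reads (351 CPM) in the ACE-negative library, a 5.83-fold difference [5.64 to 6.03]. In the other sort it had 16595 reads (1171 CPM) in the CD74-positive library and 1999 reads (304 CPM) in the CD74-negative library, 3.85-fold [3.68 to 4.04]. Both positive libraries were thus high for H2-Aa and both negative libraries low, with no overlap of counting intervals.

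H2-Ab1 (ENSMUSG00000073421, chromosome 17, 34257689 to 34269419, plus strand) encodes the I-A beta chain, the partner of H2-Aa. It had 21566 reads (1880 CPM) in ACE-positive cells and 4317 reads (360 CPM) in ACE-negative cells, 5.22-fold [5.05 to 5.40]. It had 15486 reads (1093 CPM) in CD74-positive cells and 1889 reads (287 CPM) in CD74-negative cells, 3.80-fold [3.63 to 3.99]. The partner genes thus differed little in ratio: on the log2 scale H2-Aa and H2-Ab1 stood at 2.54 and 2.38 in the ACE table and at 1.94 and 1.92 in the CD74 table.

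H2-Eb1 (ENSMUSG00000060586, chromosome 17, 34305867 to 34316674, plus strand), the I-E beta chain gene, was transcribed in all 4 libraries although its alpha chain partner is silent in this strain. It had 17688 reads (1542 CPM) in ACE-positive cells and 2669 reads (223 CPM) in ACE-negative cells, 6.93-fold [6.65 to 7.22]. It had 13276 reads (937 CPM) in CD74-positive cells and 1221 reads (186 CPM) in CD74-negative cells, 5.05-fold [4.76 to 5.36]. Its fold was the highest of the 3 classical chain genes in each table, and its interval did not overlap theirs.

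Cd74 (ENSMUSG00000024610, chromosome 18, 60803848 to 60812652, plus strand) encodes the invariant chain. It had 42535 reads (3709 CPM) in ACE-positive cells and 6698 reads (559 CPM) in ACE-negative cells, 6.64-fold [6.47 to 6.81], and by mean level it ranked 27th of all genes tested in the ACE table. In the table it was sorted on, it had 30570 reads in CD74-positive and 2993 reads in CD74-negative cells, 4.74-fold [4.57 to 4.92]. The fold of the sorting marker was thus smaller in its own sort than in the sort on ACE. Likewise, Ace was 3.62-fold higher in the CD74 table, at 233 CPM in CD74-positive and 64.5 CPM in CD74-negative cells, so each marker's transcript moved with the sort on the other.

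Ciita (ENSMUSG00000022504, chromosome 16, 10480059 to 10528418, plus strand), which encodes the transactivator of the other members, had 912 reads (79.5 CPM) in ACE-positive cells and 170 reads (14.2 CPM) in ACE-negative cells, 5.61-fold [4.75 to 6.64]. It had 898 reads (63.4 CPM) in CD74-positive cells and 61 reads (9.27 CPM) in CD74-negative cells, 6.83-fold [5.27 to 9.01]. By log2 ratio Ciita ranked 38th of 9719 genes in the CD74 table, above the other members except when ratios were centred by gene length or the pseudocount was 5, and it ranked 144th of 9656 in the ACE table. For all of Cd74, H2-Aa, H2-Ab1, H2-Eb1 and Ciita the order of levels was ACE-positive, CD74-positive, ACE-negative, CD74-negative from high to low, with no overlap of counting intervals between neighbours. The tables were scaled separately, so this order across tables carries no test. For Cd74, the place of CD74-positive above CD74-negative cells follows from the sort.

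**Figure D2:**
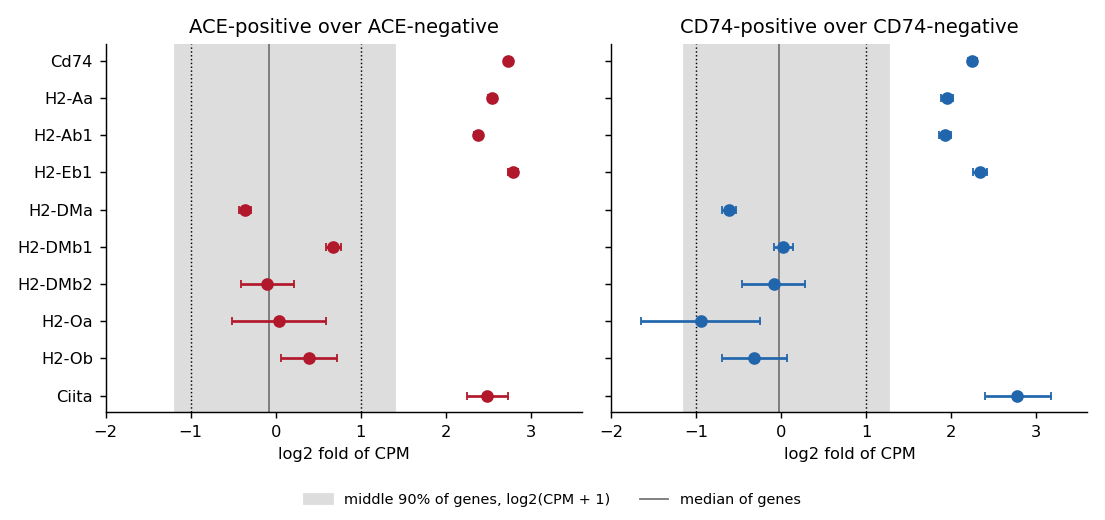
Log2 fold of CPM, positive over negative, of each member in the ACE table (left) and the CD74 table (right), with exact 95% counting intervals. The grey band spans the middle 90% of genes tested and dotted lines mark −1 and 1. The classical chain genes, Cd74 and Ciita lie to the right of the band in both panels, and the points of the H2-DM and H2-DO genes lie within it.

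The genes of the H2-DM peptide exchanger had smaller ratios than the chains and differed among themselves. H2-DMa (ENSMUSG00000037649, chromosome 17, 34119541 to 34139101, plus strand), the DM alpha chain, had 2659 reads (232 CPM) in ACE-positive cells and 3565 reads (297 CPM) in ACE-negative cells, 0.779-fold [0.741 to 0.820]. It had 2711 reads (191 CPM) in CD74-positive cells and 1931 reads (294 CPM) in CD74-negative cells, 0.652-fold [0.614 to 0.691]. H2-DMa was therefore lower in both positive libraries by more than counting error but by less than the 2-fold needed for a call, and 77.3% of genes in the ACE table and 75.2% in the CD74 table had an interval that excluded 1.

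H2-DMb1 (ENSMUSG00000079547, chromosome 17, 34153072 to 34160230, plus strand) is the main DM beta chain gene by reads. It had 2558 reads (223 CPM) in ACE-positive cells and 1670 reads (139 CPM) in ACE-negative cells, 1.60-fold [1.504 to 1.70]. It had 1970 reads (139 CPM) in CD74-positive cells and 900 reads (137 CPM) in CD74-negative cells, 1.02-fold [0.938 to 1.10]. H2-DMb1 was thus above the counting error in the sort on ACE and level within it in the sort on CD74. Centred by gene length, its log2 ratio in the ACE table was 1.22 rather than 0.67 and it was called higher, as it also was at a log2 threshold of 0.58.

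H2-DMb2 (ENSMUSG00000037548, chromosome 17, 34143307 to 34151555, plus strand), a near copy of H2-DMb1, had 165 reads (14.4 CPM) in ACE-positive and 185 reads (15.4 CPM) in ACE-negative cells, and 188 reads (13.3 CPM) in CD74-positive and 93 reads (14.1 CPM) in CD74-negative cells. The counting intervals of H2-DMb2 overlapped within each sort, so no difference was detectable at this depth. H2-DMb2 took 6.06% of the reads on both DM beta genes in ACE-positive, 9.97% in ACE-negative, 8.71% in CD74-positive and 9.37% in CD74-negative cells. Of all 50-base stretches in the transcripts of H2-DMb1, 22.7% also occur in H2-DMb2, so the split of reads between the copies is uncertain. For H2-DMa, 8.43% of such stretches lie in Brd2, which overlaps it on the other strand by 3094 bases, and no source used here gives the strand setting of the count. The same limit holds for Ciita, which Dexi overlaps on the other strand by 25888 bases, with 1.46% of stretches shared. An antisense gene, Gm20513, overlaps H2-Eb1 by 2204 bases, with 0 stretches shared.

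The H2-DO genes stood at 16 CPM or less in every library, and by CPM, which takes no account of gene length, H2-Oa was the lowest member in each. Per kilobase of exon H2-Oa was lowest in CD74-positive cells alone. H2-Ob was lowest in ACE-positive cells, and Ciita was lowest in ACE-negative and CD74-negative cells. H2-Oa (ENSMUSG00000024334, chromosome 17, 34092340 to 34095234, plus strand), the DO alpha chain, had 58 reads (5.06 CPM) in ACE-positive and 59 reads (4.92 CPM) in ACE-negative cells, and 39 reads (2.75 CPM) in CD74-positive and 35 reads (5.32 CPM) in CD74-negative cells. H2-Ob (ENSMUSG00000041538, chromosome 17, 34238903 to 34254414, plus strand), the DO beta chain, had 178 reads (15.5 CPM) in ACE-positive and 142 reads (11.8 CPM) in ACE-negative cells, and 157 reads (11.1 CPM) in CD74-positive and 91 reads (13.8 CPM) in CD74-negative cells. The fold of H2-Ob was 1.31 [1.04 to 1.64] in the ACE table and 0.801 [0.615 to 1.05] in the CD74 table, and that of H2-Oa was 1.03 [0.703 to 1.502] and 0.517 [0.319 to 0.841]. For H2-Oa, 15.5% of 50-base stretches are shared with the antisense gene BC051537. All DM and DO genes together summed to 490 CPM in ACE-positive and 469 CPM in ACE-negative cells, and to 357 CPM in CD74-positive and 464 CPM in CD74-negative cells, whereas the 3 classical chain genes summed to 5472 CPM in ACE-positive and 934 CPM in ACE-negative cells, and to 3200 CPM in CD74-positive and 777 CPM in CD74-negative cells. In sorted pools of this kind, fewer cells of a type and less RNA per cell cannot be told apart.

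Ratios taken inside a library need no scaling between libraries. Per 100 reads on H2-Ab1 there were 109.0 reads on H2-Aa in ACE-positive, 97.6 in ACE-negative, 107 in CD74-positive and 106 in CD74-negative cells, so the I-A chain genes kept a nearly fixed ratio. Cd74 had 197, 155, 197 and 158 reads per 100 in the same order of libraries, and H2-Eb1 had 82.0, 61.8, 85.7 and 64.6. The positive libraries were thus alike in both ratios and stood above the negative libraries, which were alike too. Cd74 set the CD74 sort, so its difference between CD74-positive and CD74-negative cells is not a finding.

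The exchanger genes behaved in the opposite way in these ratios, which also carry the difference of H2-Ab1 itself. H2-Ab1 was 5.22-fold higher in ACE-positive and 3.80-fold higher in CD74-positive cells, so a gene of equal level on both sides falls in these ratios. By CPM, H2-DMa had folds of 0.779 and 0.652 and H2-DMb1 of 1.60 and 1.02 in the ACE and the CD74 table. Per 100 H2-Ab1 reads, H2-DMa had 12.3 reads in ACE-positive, 82.6 in ACE-negative, 17.5 in CD74-positive and 102 in CD74-negative cells, while H2-DMb1 had 11.9, 38.7, 12.7 and 47.6 reads in that order. In negative cells H2-DMa thus had 6.70 times as many reads per H2-Ab1 read in the ACE sort and 5.84 times as many in the CD74 sort, and H2-DMb1 3.26 and 3.75 times as many. H2-DMb2, H2-Oa and H2-Ob, at 5 or fewer reads per 100, were also lower in each positive library than in its negative partner. For Ciita the count was 4.23 in ACE-positive, 3.94 in ACE-negative, 5.80 in CD74-positive and 3.23 in CD74-negative cells, the ACE pair being nearly alike.

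Per kilobase of exon, which allows levels of different genes to be compared, Cd74 stood at 3.02 times H2-Ab1 in ACE-positive, 2.37 times in ACE-negative, 3.02 times in CD74-positive and 2.42 times in CD74-negative cells. H2-DMa stood at 0.0918 times H2-Ab1 in ACE-positive, 0.615 times in ACE-negative, 0.130 times in CD74-positive and 0.761 times in CD74-negative cells. Such ratios between genes depend on the length used, and with coding length in place of exon length Cd74 stood at 1.87 times H2-Ab1 in ACE-positive cells. The ratio of a gene to H2-Ab1 between libraries is not touched by that choice.

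**Figure D3:**
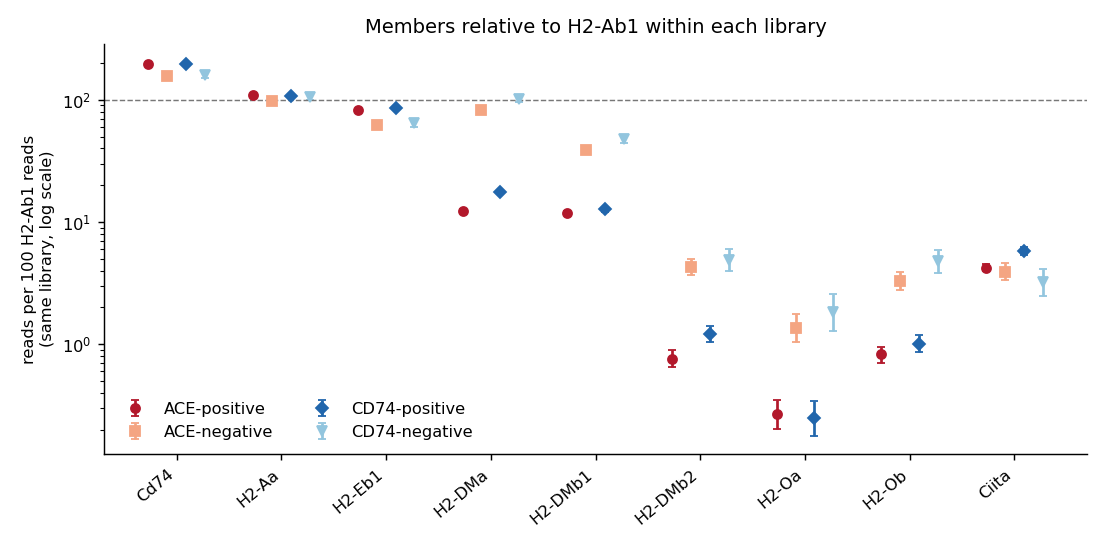
Reads on each member per 100 reads on H2-Ab1 in the same library (log scale), for the ACE-positive, ACE-negative, CD74-positive and CD74-negative library, with exact 95% counting intervals; the dashed line is H2-Ab1 itself. H2-DMa stands at 12.3 in ACE-positive and 82.6 in ACE-negative cells, whereas H2-Aa stays near the line in all 4 libraries.

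Apart from Cd74 and Ciita, the members lie in 224 kb of chromosome 17 (34092340 to 34316674, GRCm38), which allowed the genes between them to be read as local comparators. The 5 other genes there that passed the level filter were Brd2, a chromatin reader, the transporter genes Tap1 and Tap2 and the immunoproteasome genes Psmb8 and Psmb9, which serve MHC class I. Of these, 0 were called higher and 0 lower in either table, and their median log2 ratio was −0.15 in the ACE table and −0.16 in the CD74 table. Tap1 was at 321 CPM in ACE-positive and 357 CPM in ACE-negative cells, and at 304 CPM in CD74-positive and 340 CPM in CD74-negative cells. Psmb8 was at 96.1 CPM in ACE-positive and 146 CPM in ACE-negative cells, and at 91.6 CPM in CD74-positive and 145 CPM in CD74-negative cells. The folds of the other neighbours were 0.737 and 0.653 for Psmb9, 1.21 and 1.15 for Tap2, and 1.39 and 1.65 for Brd2, in the ACE and the CD74 table. High ratios in this stretch were thus found at its H2-Eb1 end, where H2-Ab1, H2-Aa and H2-Eb1 lie side by side.

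**Figure D4:**
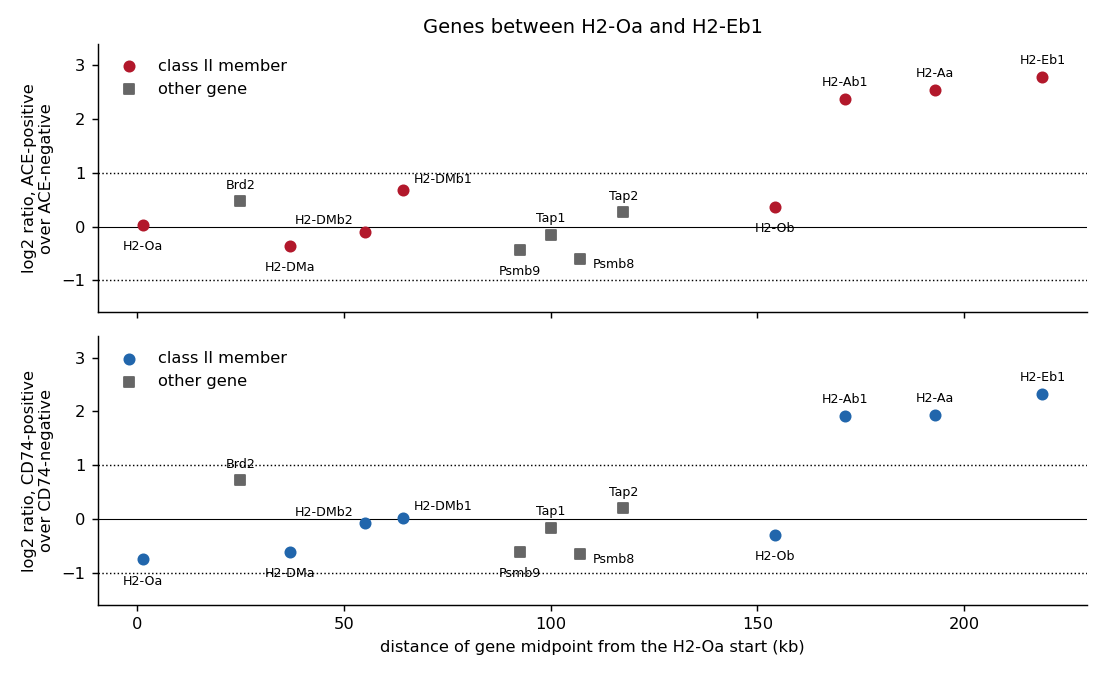
Log2 ratio of CPM + 1, positive over negative, of the genes between H2-Oa and H2-Eb1, against the distance of the gene's midpoint from the H2-Oa start in kb, for the ACE table (top) and the CD74 table (bottom). Round symbols are class II members, squares are other genes and dotted lines mark −1 and 1. H2-Ab1, H2-Aa and H2-Eb1 stand at 2.38, 2.54 and 2.79 in the ACE table, and no other gene in the stretch passes 1.

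Factors that act with CIITA at class II promoters showed smaller differences than Ciita itself. Of the 10 listed (the RFX and NF-Y subunits, Creb1 and the acetyltransferases Crebbp, Ep300 and Kat2b), 2 were higher and 0 lower in each table, with median log2 ratios of 0.14 in the ACE table and 0.30 in the CD74 table. Over all genes tested, 9.46% were higher and 8.62% lower in the ACE table, and 9.08% and 7.73% in the CD74 table. The coactivator gene Ep300 was at 192 CPM in ACE-positive and 88.7 CPM in ACE-negative cells (2.17-fold [2.01 to 2.33]), and at 250 CPM in CD74-positive and 73.1 CPM in CD74-negative cells (3.42-fold [3.11 to 3.77]). The related Crebbp was 2.14-fold [1.89 to 2.44] and 2.98-fold [2.54 to 3.51] higher. Both are long transcripts, and centred by gene length the log2 ratios in the ACE table were 0.56 for Ep300 and 0.53 for Crebbp, so neither was called there, and Crebbp was not called in the CD74 table either (0.92). Crebbp was also not called in the ACE table with a pseudocount of 5 (0.99). Nfya, a subunit of the Y box factor, had log2 ratios of 0.10 and 0.50 and was not called.

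Along the route by which interferon gamma reaches Ciita, the sort on ACE gave 3 of 12 genes higher and 1 lower, and the sort on CD74 gave 1 higher and 0 lower. The shares over all genes tested were 9.46% higher and 8.62% lower in the ACE table, and 9.08% and 7.73% in the CD74 table. Prdm1, which encodes the repressor BLIMP-1 that silences Ciita in plasma cells, was at 32.2 CPM in ACE-positive and 3.003 CPM in ACE-negative cells (10.7-fold [7.60 to 15.5]). In the other sort it was at 24.6 CPM in CD74-positive and 2.28 CPM in CD74-negative cells (10.8-fold [6.46 to 19.5]). The direction of Prdm1 was thus the same as that of Ciita in both sorts. Irf8, a myeloid transcription factor gene, was lower in the ACE table, at 307 CPM in ACE-positive and 709 CPM in ACE-negative cells. In the CD74 table Irf8 had a fold of 0.564, short of a call, although 2 of 9 alternatives called it lower. Spi1, which encodes PU.1, had folds of 1.14 and 0.902, neither called. Irf4 had log2 ratios of 0.88 and 0.90 and was not called, although 2 of 9 alternatives in the ACE table and 3 of 9 in the CD74 table called it higher. The other genes called higher in the ACE table were the interferon gamma receptor gene Ifngr1 (2.29-fold) and Irf2 (2.03-fold), named after their values were seen. The call of Irf2 was lost under 3 of 9 alternatives, centred by gene length (a log2 ratio of 0.88) or by GC content (0.996) and with a pseudocount of 5 (0.97).

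Of the 9 listed genes for peptide processing, 1 was higher and 0 lower in each table, where 9.46% (ACE) and 9.08% (CD74) of all genes tested were higher. That gene was Lgmn, which encodes the endosomal protease legumain, at 396 CPM in ACE-positive and 96.7 CPM in ACE-negative cells (4.09-fold [3.83 to 4.37]), and at 272 CPM in CD74-positive and 83.3 CPM in CD74-negative cells (3.27-fold [2.99 to 3.58]). Ctss, which encodes cathepsin S, the protease of the last step of invariant chain trimming in B cells and dendritic cells, had folds of 1.66 in the ACE table and 1.22 in the CD74 table. Ctss was not called, but centred by gene length its log2 ratios were 1.38 and 1.10, past the level of a call. Ctsb (cathepsin B) had folds of 1.81 and 1.37, and Cst3, the gene of the protease inhibitor cystatin C, had folds of 0.919 and 0.507, the last called lower under 3 of 9 alternatives. Median log2 ratios of the list were 0.36 and 0.27.

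Among 3 genes that set how long class II stays at the surface, 1 was higher in the ACE table, 2 were higher in the CD74 table and 0 were lower. Over all genes tested, 9.46% were higher in the ACE table and 9.08% in the CD74 table. Cd83, whose product protects class II from ubiquitination by MARCH1, was at 229 CPM in ACE-positive and 45.6 CPM in ACE-negative cells (5.02-fold [4.58 to 5.52]), and at 95.2 CPM in CD74-positive and 30.9 CPM in CD74-negative cells (3.09-fold [2.66 to 3.595]). Marchf1, the gene of that ligase, had folds of 1.12 and 1.03 and was not called. Marchf8, the gene of a related ligase, was at 26.3 CPM in CD74-positive and 12.01 CPM in CD74-negative cells and was called higher there, but not when centred by gene length (a log2 ratio of 0.68) or by GC content (0.98), nor with a pseudocount of 5 (0.88).

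MHC class I served as the other antigen presentation route. Of its 13 listed genes, 1 was higher and 0 lower in each table, with median log2 ratios of 0.09 in the ACE table and −0.16 in the CD74 table. Over all genes tested, 9.46% were higher and 8.62% lower in the ACE table, and 9.08% and 7.73% in the CD74 table. The gene called was Nlrc5, the class I counterpart of Ciita, at 122 CPM in ACE-positive and 49.6 CPM in ACE-negative cells (2.46-fold [2.23 to 2.71]), and at 127 CPM in CD74-positive and 44.5 CPM in CD74-negative cells (2.84-fold [2.51 to 3.23]). The class I heavy chain genes H2-K1 and H2-D1 had folds of 1.84 and 1.65 in the ACE table and of 1.28 and 1.10 in the CD74 table. B2m, which encodes the shared light chain, had folds of 1.55 and 0.889, and the immunoproteasome gene Psmb10 had folds of 0.608 and 0.589. Ciita and Nlrc5 were each called higher in both tables. No class I chain gene was called at the main settings, and the class I count was near the share over all genes. In the ACE table H2-K1 was called higher under 4 of 9 alternatives and H2-D1 and B2m under 2 each, and centred by gene length 4 of the 13 class I genes were called higher.

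Markers of cell types were read beside these ratios, and their part in the class II result was not tested. The shares over all genes tested were 9.46% higher and 8.62% lower in the ACE table, and 9.08% and 7.73% in the CD74 table. Macrophage markers summed to 4607 CPM in ACE-positive and 1518 CPM in ACE-negative cells, with 9 of 11 higher, and to 3281 CPM in CD74-positive and 1365 CPM in CD74-negative cells, with 7 of 11 higher. Complement C1qc was at 338 CPM in ACE-positive and 27.7 CPM in ACE-negative cells, and at 256 CPM in CD74-positive and 17.03 CPM in CD74-negative cells. Mertk, an engulfment receptor gene, was 21.4-fold [13.8 to 34.9] and 21.6-fold [11.3 to 47.6] higher. C1qa was 7.98-fold and 16.02-fold higher. Csf1r, the CSF1 receptor gene, was 2.70-fold higher in the ACE table. In the CD74 table Csf1r had a fold of 1.79 and was not called, although 2 of 9 alternatives called it higher. Cd68 had folds of 1.86 and 1.28, neither called. For Cd68, 3 of 9 alternatives in the ACE table and 1 of 9 in the CD74 table gave a call of higher. Nonclassical monocyte markers, a list that includes Ace, summed to 7132 CPM in ACE-positive and 1738 CPM in ACE-negative cells, with 8 of 10 higher, and to 3163 CPM in CD74-positive and 1720 CPM in CD74-negative cells, with 7 of 10 higher. Ace set the ACE sort, so its call there (1215 against 11.6 CPM) is a check of the sort. That call and level are part of the count and sums of the ACE table. Cd300e, a myeloid receptor gene, was 308-fold [132 to 950] and 4.76-fold [3.35 to 6.99] higher, and Nr4a1, a transcription factor gene, 3.35-fold and 2.26-fold. The 308-fold value rests on a low level in ACE-negative cells. There the log2 ratio of Cd300e was 6.51, but 7.96 with a pseudocount of 0.1 and 4.62 with a pseudocount of 5. Itgal was 3.53-fold higher in the ACE table. In the CD74 table Itgal had a fold of 1.90 and was not called, although 3 of 9 alternatives called it higher. Cebpb had folds of 1.80 and 1.30, neither called. For Cebpb, 2 of 9 alternatives in the ACE table and 1 of 9 in the CD74 table gave a call of higher. Classical monocyte markers summed to 6482 CPM in ACE-positive and 13508 CPM in ACE-negative cells, with 5 of 8 lower, and to 11260 CPM in CD74-positive and 12650 CPM in CD74-negative cells, with 0 of 8 called. Among them Fn1 was 0.347-fold in the ACE table and 1.84-fold in the CD74 table, so class II chains were higher in both sorts while this marker differed in direction. F13a1 and Vcan were lower in the ACE table, with folds of 0.218 and 0.455 (the call of Vcan was lost with plain totals). In the CD74 table they had folds of 0.804 and 1.84, not called. There, 2 of 9 alternatives called Fn1 higher and 2 of 9 called Vcan higher, with plain totals 1 of them for each. Plac8 had folds of 0.812 and 0.612 and Ly6c2 of 0.664 and 0.637, none called.

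Cell types that carry class II at high level by lineage gave a mixed picture. Over all genes tested, 9.46% were higher and 8.62% lower in the ACE table, and 9.08% and 7.73% in the CD74 table. B cell markers summed to 202 CPM in ACE-positive and 98.0 CPM in ACE-negative cells, with 5 of the 8 that passed the filter higher. They summed to 177 CPM in CD74-positive and 226 CPM in CD74-negative cells, with 1 of 8 higher. Their median log2 ratio in the CD74 table was −0.28, against −0.04 centred by gene length and 0.06 with a level filter of 1 CPM. Centred by gene length, 8 of 8 B cell markers were called higher in the ACE table, and 1 higher and 1 lower in the CD74 table. Cd79b, part of the B cell receptor, was at 60.4 CPM in ACE-positive and 44.9 CPM in ACE-negative cells, and at 46.5 CPM in CD74-positive and 91.7 CPM in CD74-negative cells. Pax5, the B cell identity factor gene, was 4.80-fold higher in the ACE table and 3.33-fold higher in the CD74 table. Bank1 was 4.18-fold and Cd79a 2.07-fold higher in the ACE table, where the call of Cd79a was lost with a pseudocount of 5, and in the CD74 table their folds were 1.55 and 0.549, not called. Conventional dendritic cell markers summed to 656 CPM in ACE-positive and 765 CPM in ACE-negative cells (2 of 10 higher, 1 lower), and to 597 CPM in CD74-positive and 1051 CPM in CD74-negative cells (1 of 10 higher, 2 lower). Flt3, the growth factor receptor gene of dendritic cell precursors, was lower in both, with folds of 0.322 and 0.383, and Itgax was 3.61-fold higher in the ACE table and not called in the CD74 table (1.58-fold). Ccr7 was 3.74-fold higher in the ACE table (1.29-fold in the CD74 table) and Mgl2 2.85-fold higher in the CD74 table (2.09-fold in the ACE table, where 6 of 9 alternatives called it). Cd24a was lower in the CD74 table (0.473-fold, a call lost under 3 of 9 alternatives) and had a fold of 0.696 in the ACE table, and Cd209a had folds of 0.682 and 0.543, not called. Plasmacytoid dendritic cell markers summed to 97.9 CPM in ACE-positive and 121 CPM in ACE-negative cells, and to 103 CPM in CD74-positive and 150 CPM in CD74-negative cells, and Siglech was lower in both tables, with folds of 0.270 and 0.327. Ly6d had folds of 0.887 and 0.405, lower in the CD74 table except when centred by gene length, and Tcf4 had folds of 1.25 and 1.22, not called. No listed marker was at 0 in any library.

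**Figure D5:**
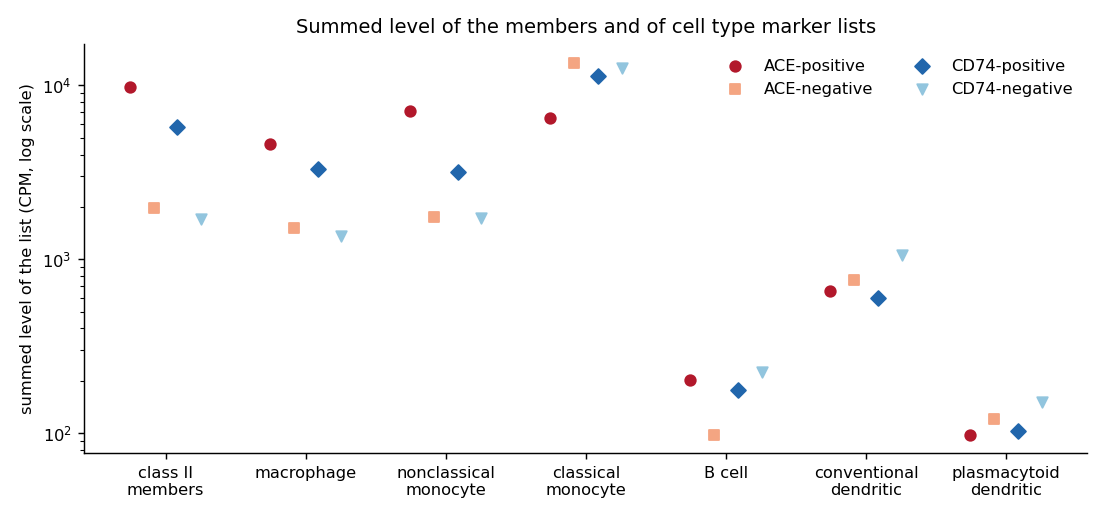
Summed level in CPM (log scale) of the 10 members and of each marker list in the ACE-positive, ACE-negative, CD74-positive and CD74-negative library. The macrophage and nonclassical monocyte sums are higher in both positive libraries, as the members are, and the B cell sum is higher in ACE-positive than in ACE-negative cells (202 and 98.0 CPM) but lower in CD74-positive than in CD74-negative cells (177 and 226 CPM). The nonclassical list includes Ace, which set the ACE sort, and the members include Cd74, which set the CD74 sort.

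The genes whose pair of ratios was most like that of the classical chains were named by distance, in log2 units, from the median pair of H2-Aa, H2-Ab1 and H2-Eb1 (2.54 in the ACE table and 1.94 in the CD74 table), among 9533 genes that passed the filter in both tables. Each pair rests on the same 4 libraries. In all, 458 genes (4.80%) were called higher in both tables, and 52 stood at or above that median pair in both. H2-Aa, H2-Eb1 and Cd74 are themselves among the 52. The 8 nearest genes were Col4a1 (0.0233), Cxcl9 (0.0467), Plvap (0.0551), Slamf9 (0.0941), Col4a2 (0.116), St8sia6 (0.178), Nr1h3 (0.200) and Flt1 (0.208). The distances use log2 ratios of CPM + 1, which fall short of the log2 fold at low levels. Plvap, Col4a2, St8sia6 and Nr1h3 stood below 5 CPM in both negative libraries. St8sia6, at 1.33 CPM in ACE-negative and 1.82 CPM in CD74-negative cells, had folds of 8.82 and 6.07, against 5.83 and 3.85 for H2-Aa. With a pseudocount of 0.1 the log2 ratio of St8sia6 in the ACE table was 3.05 rather than 2.45. Col4a1 and Col4a2 encode type IV collagen chains of basement membrane, Plvap and Flt1 encode endothelial proteins, Cxcl9 encodes a chemokine that interferon gamma induces, and Nr1h3 encodes the nuclear receptor LXR alpha. Cxcl9 was at 70.2 CPM in ACE-positive and 10.8 CPM in ACE-negative cells, and at 46.2 CPM in CD74-positive and 11.2 CPM in CD74-negative cells. Col4a1 was at 38.3 CPM in ACE-positive and 5.67 CPM in ACE-negative cells, and at 26.5 CPM in CD74-positive and 6.08 CPM in CD74-negative cells.

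The authors' deposited tables list an adjusted p for each gene. In the authors' deposited table for ACE it was 0.271 for H2-Eb1, 0.292 for Cd74, 0.392 for H2-Aa, 0.609 for H2-Ab1 and 0.825 for Ciita, and 1 for the other members. In the authors' deposited table for CD74 it was 1 for all 10 members. No source used here names the test behind these values.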

How the data were processed

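The authors deposited 2 tables, one per sort, and per the file headers each holds, for every gene, a normalised signal in each library together with the ratio (fold), the log2 of that ratio, and a raw and an adjusted p-value. The submitters' processing notes name HISAT2 and GRCm38; no source used here gives the counter, its strand setting or the annotation. The labels of the CD74 samples cite a table under another name, and its columns were assigned by the table's own name and header.

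The design had been written for counts, while the deposited signal is counts divided by a size factor. Every value was a whole multiple of its library's step (100% within 0.001 reads), so whole reads were recovered. Read totals were 10944171 (ACE-positive), 12561196 (ACE-negative), 13282126 (CD74-positive) and 7020232 (CD74-negative), where 3 reads, the limit that a count of 0 allows, are 0.274, 0.239, 0.226 and 0.427 CPM.

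CPM used TMM library sizes (edgeR 4.0.16, R 4.3.3) over the whole table. Folds have exact conditional binomial (Clopper-Pearson) 95% intervals and levels exact Poisson ones. PCR duplicates are not independent molecules, so intervals cover counting error only. No test between conditions was possible with 1 library per group. Calls were checked on simulated data. Lists other than the members gave, by rule, their 2 most abundant genes and the 2 of largest ratio per table, and genes named outside that rule are said to be so. The members and lists were chosen with earlier results of these data known. Symbols and lengths were checked against GENCODE M21, and shared 50-base stretches came from its transcripts. H2-Ea, H2-Ea-ps, H2-Ab2 and Ifi30 were looked up, and neither table lists a gene under these symbols. Alternatives were plain totals, DESeq2 and upper quartile size factors, totals without the 100 most abundant genes, centring by gene length or GC content (running median of 501 genes), pseudocounts of 0.1 and 5, other level filters and a log2 threshold of 0.58.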

Additional observations from a re-analysis of the deposited data

How the results depend on the processing

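Cd74, H2-Aa, H2-Ab1, H2-Eb1 and Ciita kept their direction and call in both tables under all 9 alternatives that gave each a value, with log2 ratios of 2.72 to 3.27 for Cd74 and 2.11 to 2.57 for Ciita in the ACE table, and of 2.21 to 2.93 and 2.26 to 2.82 in the CD74 table. Cd74 set the CD74 sort, so its range there is a check of that sort. Among members not called, H2-DMb2 in both tables and H2-DMb1 and H2-Oa in the CD74 table changed sign between settings. The median log2 ratio of the members in the ACE table was 1.66 with plain library totals, 1.61 with totals without the 100 most abundant genes, 1.66 centred by gene length, 1.63 centred by GC content and 1.40 with a pseudocount of 5. In the CD74 table it was 1.16 with plain totals, 1.39 centred by gene length and 0.023 without Cd74. At a log2 threshold of 0.58, 1 member (H2-DMa) was called lower in the CD74 table, and H2-DMb1 was called higher in the ACE table, which made 6 members called there, as did centring by gene length. With X1 as CNNGNAAC, 5 promoters held the pair, by construction of the wider motif. The cause of the other moves was not tested. With plain totals the median of all genes moved to 0.05 in the ACE table and 0.15 in the CD74 table, and the share of calls that were higher was 67.2% and 74.8%, against 52.3% and 54.0%. Totals without the 100 most abundant genes gave 66.3% in the CD74 table and centring by gene length 65.4% in the ACE table. Coding in place of exon length moved 35 of 36 ratios per kilobase. A DESeq2 test could not be fitted with 1 library per group and was not run. No paired analysis was possible because each group holds 1 library. Depth limits H2-Oa most, at 35 to 59 reads a library.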

Other observations

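Costimulatory genes did not share 1 direction with the class II chains. Of the 7 that passed the level filter, 2 were higher and 0 lower in the ACE table, and 1 was higher and 1 lower in the CD74 table. The shares over all genes tested were 9.46% higher and 8.62% lower in the ACE table, and 9.08% and 7.73% in the CD74 table. Cd274, which encodes the inhibitory ligand PD-L1, was at 74.98 CPM in ACE-positive and 4.09 CPM in ACE-negative cells (18.3-fold [13.7 to 24.99]), and at 36.7 CPM in CD74-positive and 7.45 CPM in CD74-negative cells (4.93-fold [3.67 to 6.74]). Icam1, an adhesion ligand gene, was 2.10-fold higher in the ACE table (not called with a pseudocount of 5, at a log2 ratio of 0.97) and 1.90-fold in the CD74 table, where it was not called, although 3 of 9 alternatives called it. Cd48 had folds of 0.577 in the ACE table and 0.443 in the CD74 table, called lower in the CD74 table but not when centred by gene length (a log2 ratio of −0.28) or with plain totals (−0.98).

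Genes of the signalling side of CD74, the receptor of the cytokine MIF, were called in 1 case. Over all genes tested, 9.46% were higher and 8.62% lower in the ACE table, and 9.08% and 7.73% in the CD74 table. Of 4 that passed, 0 were higher under the settings used here, and Mif was lower in the CD74 table, at 49.95 CPM in CD74-positive and 119 CPM in CD74-negative cells, but centring by gene length ended that call (a log2 ratio of −0.23). Cxcr4, a coreceptor gene, was at 890 CPM in ACE-positive and 445 CPM in ACE-negative cells, just short of a call, and 6 of 9 alternatives called it higher. In the CD74 table Cxcr4 had a fold of 1.08. Cd44 had folds of 1.20 and 1.05 and Cxcr2 of 1.27 and 0.802, none called. Of the other class II loci, H2-Eb2 had 76 reads in ACE-positive and 6 reads in ACE-negative cells (13.2-fold [5.81 to 37.2]), and 43 reads in CD74-positive and 4 reads in CD74-negative cells (4.99-fold [1.81 to 19.1]), under the level filter in both tables.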
